A study of Mus musculus with 17 samples.

Results

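The genes considered here encode 7 surface molecules by which antigen-presenting cells stimulate or restrain T cells, namely Cd40, Cd80, Cd86, Icosl, Cd274, Pdcd1lg2 and Cd276. They were chosen as a family by name. Each had 1 probe set, as did every named gene, so all 7 could be followed among the 15780 named genes of the arrays. The cells were F4/80hi macrophages, those with much of this macrophage surface marker, from kidneys of NZB/W mice, a strain that develops lupus nephritis spontaneously. Remission arrays (n = 4) came from mice 3 to 4 weeks after complete remission had been reached with 1 dose of cyclophosphamide and 6 doses of CTLA4Ig plus anti-CD154, where the labels do not say whether the 6 doses also apply to anti-CD154. Nephritic arrays (n = 7) came from mice 2 to 6 weeks after proteinuria had begun and before end-stage kidney failure. Prenephritic arrays (n = 6) came from mice aged 8 to 16 weeks, called young in the sample titles. The age of the remission and nephritic mice is not in the labels. Age therefore cannot be told apart from disease, nor drug treatment from remission. The labels do not state that the arrays of a group came from separate animals, so the p-values measure the spread between these samples. In such bulk samples, fewer cells of a type and less RNA per cell cannot be told apart.

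T cells need a second signal beside antigen, and the proteins of Cd80 and Cd86 give it by binding CD28. CTLA-4 binds the same ligands and restrains the T cell, and CTLA4Ig is a soluble form of it that blocks them. CD40 is the receptor of CD154, the CD40 ligand of activated T cells, and its engagement licenses antigen-presenting cells through TRAF adaptors and NF-κB. ICOSL binds ICOS and supports T cell help to B cells, PD-L1 (Cd274) and PD-L2 (Pdcd1lg2) bind the inhibitory receptor PD-1 (Pdcd1), and CD276, also called B7-H3, is a B7 family member whose effect on T cells has been described as stimulatory and as inhibitory. CTLA4Ig thus acts on the proteins of Cd80 and Cd86 themselves, and anti-CD154 acts on the partner of CD40. These arrays measure RNA and carry no information on how far the proteins were blocked.

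The ligand genes split into opposite directions in nephritis. Cd40, Cd274, Pdcd1lg2 and Cd276 rose in nephritic arrays, Cd86 and Icosl fell, and Cd80 was the one member that did not pass the test. In remission, Cd40, Cd80, Cd274, Pdcd1lg2 and Cd276 were lower than in nephritic arrays, Icosl was higher, and Cd86 did not pass. No member passed between remission and prenephritic arrays. Levels are log2 RMA values, a difference of 1 is a 2-fold change, and a gene was called when its limma adjusted p was below 0.05.

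Among the 7 members, 4 were higher and 2 lower in nephritic than in prenephritic arrays, where 6.74% of all genes were higher and 5.32% lower (12.1% called in all). Between remission and nephritic arrays, 1 member was higher and 5 were lower, against 3.27% and 10.0% of all genes (13.3% called in all). The values of the groups did not overlap for 4 members between nephritic and prenephritic arrays (4.68% of all genes) and for 6 members between remission and nephritic arrays (8.65% of all genes). Between remission and prenephritic arrays limma called 0 of 7 members and 0.00634% of all genes, which was 1 gene. At an unadjusted p below 0.05 the counts there were 1 member, Cd80, and 2946 genes, and none of the 7 members had groups without overlap (2.32% of all genes). In nephritic minus prenephritic arrays the median log2 difference was 0.61 over the members and −0.02 over all genes. The same medians were −1.01 and −0.03 in remission minus nephritic arrays, and −0.27 and −0.05 in remission minus prenephritic arrays. The 3 comparisons share arrays, so their values are given side by side and not as separate evidence.

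**Figure D1:**
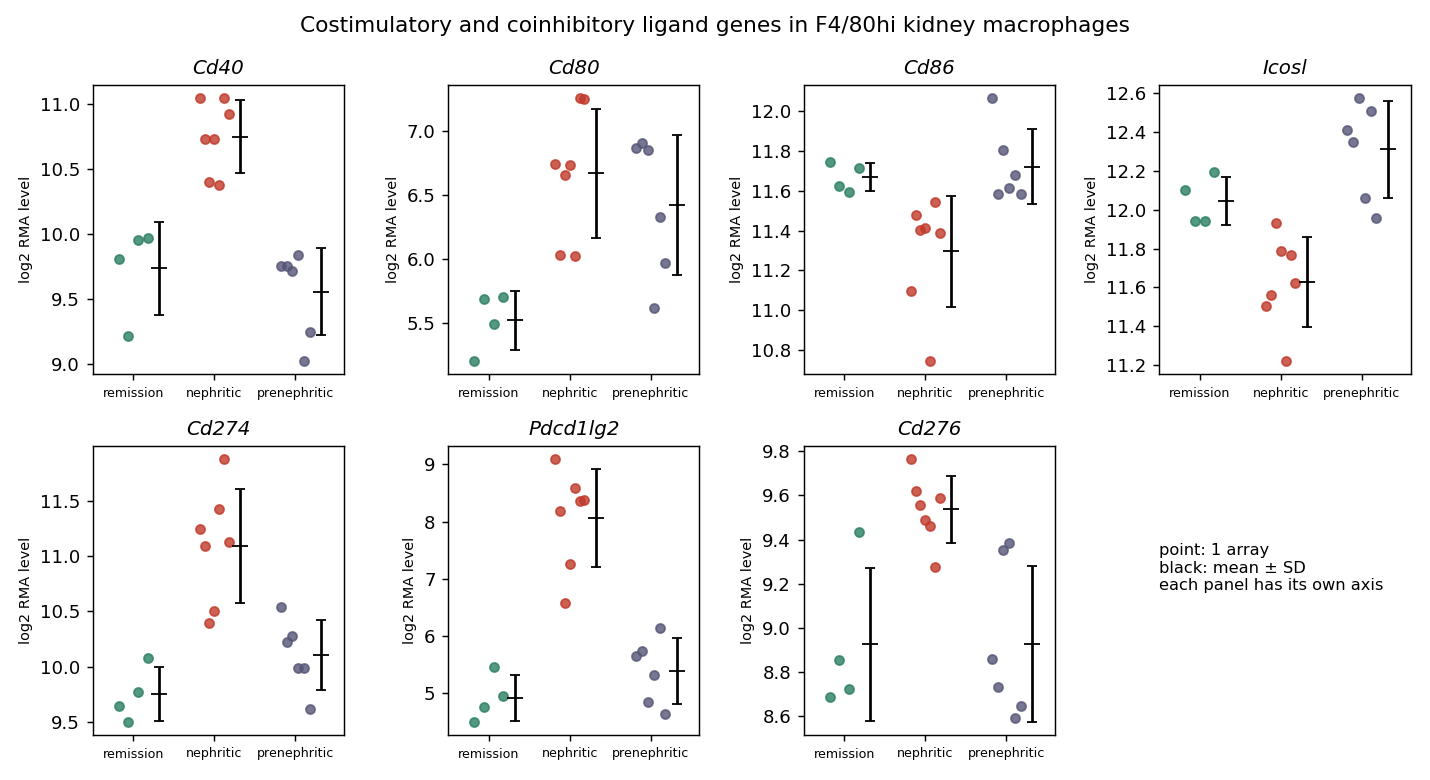
Log2 RMA level of each ligand gene (y axis, a scale of its own per panel) in remission (n = 4), nephritic (n = 7) and prenephritic arrays (n = 6). Points are arrays and black marks the mean ± SD. The nephritic arrays sit highest for Cd40, Cd274, Pdcd1lg2 and Cd276 and lowest for Cd86 and Icosl, while the remission arrays sit lowest for Cd80.

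**Figure D2:**
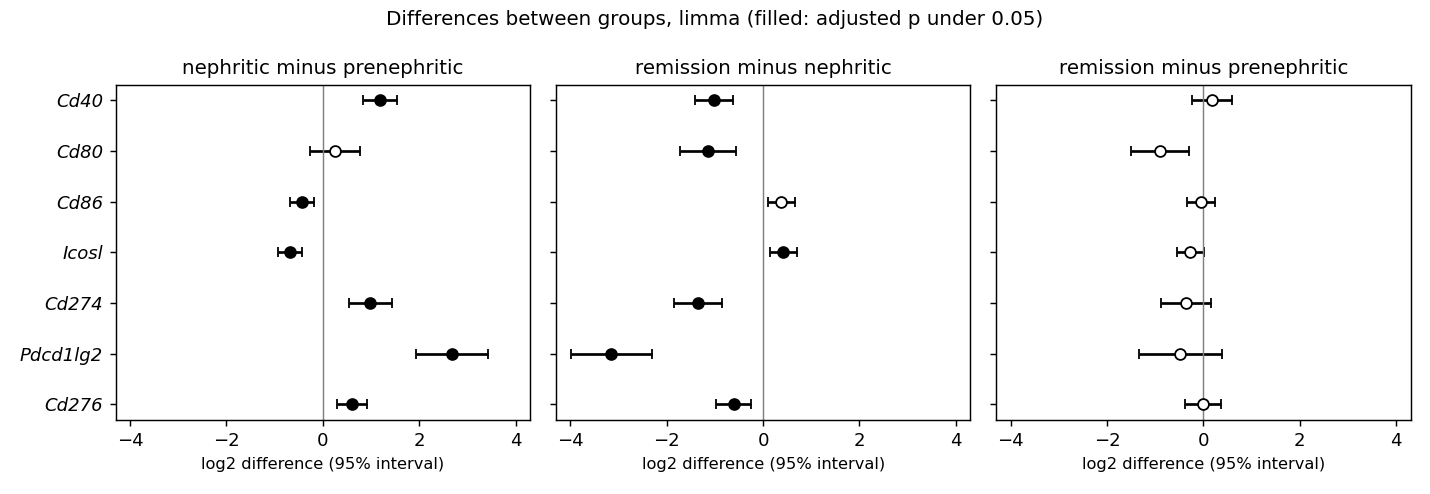
Log2 differences of the 7 genes (x axis) in 3 comparisons, with 95% intervals from limma. Filled points have an adjusted p below 0.05. Pdcd1lg2, dim in remission arrays, shows the largest differences of RMA values among the 7 genes, 2.67 in nephritic minus prenephritic and −3.15 in remission minus nephritic arrays, and no point is filled in remission minus prenephritic.

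Cd40, the receptor that anti-CD154 deprives of its ligand, was at 9.81, 9.21, 9.95 and 9.97 in the 4 remission arrays. It ran from 10.38 through a median of 10.73 to 11.04 in nephritic arrays, and from 9.02 through 9.73 to 9.84 in prenephritic arrays. Every nephritic array lay above every remission and every prenephritic array, and the remission and prenephritic ranges overlapped. Cd40 was 2.29-fold higher in nephritic than in prenephritic arrays (log2 difference 1.19 ± 0.17 SE, adjusted p = 0.00020) and 2.02-fold lower in remission than in nephritic arrays (−1.01 ± 0.19, adjusted p = 0.0022). Remission minus prenephritic was 0.18 with a 95% interval from −0.23 to 0.59 (adjusted p = 0.62). Both calls held without any 1 of the 17 arrays, with adjusted p of at most 0.00070 and 0.013.

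Cd80 and Cd86 encode the B7 ligands that CTLA4Ig binds. Cd80 was at 5.21, 5.69, 5.49 and 5.70 in remission arrays, at 6.03 to 7.25 (median 6.73) in nephritic arrays, and at 5.62 to 6.91 (median 6.59) in prenephritic arrays. The 4 remission arrays lay below all nephritic arrays, and the nephritic and prenephritic ranges overlapped widely. Nephritic minus prenephritic was 0.25 ± 0.25 (adjusted p = 0.60), with a 95% interval from −0.27 to 0.77. In remission Cd80 was 2.21-fold lower than in nephritic arrays (−1.15 ± 0.28, adjusted p = 0.012). This call was lost without remission replicate 1 (adjusted p = 0.053) and with the tubule score described below as a covariate (−0.90, adjusted p = 0.092). The remission mean of 5.52 lay above but near 5.03, the lower quartile over the arrays' probe sets. RMA compresses differences among dim genes, so the fold holds for RMA values and is not an exact ratio of RNA. Remission minus prenephritic was −0.90 ± 0.28, which did not pass (adjusted p = 0.18, and 0.024 unadjusted in an exact two-sided permutation test). Only 2 of the 4 remission arrays lay below all 6 prenephritic arrays.

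Cd86 was at 11.75, 11.62, 11.60 and 11.71 in remission arrays, at 10.74 to 11.54 (median 11.41) in nephritic arrays and at 11.58 to 12.07 (median 11.65) in prenephritic arrays. All nephritic arrays lay below all arrays of the other groups, by gaps of 0.052 to the remission and 0.038 to the prenephritic arrays. The remission arrays were close together (SD 0.072, against 0.28 in nephritic arrays), and all 4 lay inside the prenephritic range. Cd86 fell in nephritic arrays by 0.43 ± 0.12 on the log2 scale (1.34-fold, adjusted p = 0.025). That call was lost without prenephritic replicate 1 (adjusted p = 0.059), prenephritic replicate 3 (0.053) or nephritic replicate 1 (0.054), and after array medians were subtracted (0.0501). Remission minus nephritic was 0.37 ± 0.13 (adjusted p = 0.069, and 0.024 unadjusted in an exact two-sided permutation test). This difference passed limma with arrays weighted (adjusted p = 0.041) but in no fit without 1 array (0.052 to 0.18). Remission minus prenephritic was −0.053 with a 95% interval from −0.34 to 0.23.

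Whether Cd80 and Cd86 changed unequally was tested on their difference within each array, which cancels array effects that both probe sets share equally. The test uses the same values as the calls above and is no separate support for them. The log2 value of Cd80 minus Cd86 averaged −6.15 ± 0.27 in remission, −4.63 ± 0.43 in nephritic and −5.30 ± 0.47 in prenephritic arrays (SD, n = 4, 7 and 6). Relative to Cd86, Cd80 was 0.67 higher in nephritic than in prenephritic arrays (exact two-sided permutation test, adjusted p = 0.031 over 9 tests), with 3 of 7 nephritic arrays above all prenephritic ones. In remission minus nephritic arrays the difference was −1.52 (adjusted p = 0.0055), with all 4 remission arrays below all nephritic ones. In remission minus prenephritic arrays it was −0.85 (adjusted p = 0.029), with 3 of 4 remission arrays below all prenephritic ones. The remission minus nephritic call held without any 1 array. The other calls were lost without some arrays, since the adjusted p reached 0.071 for nephritic minus prenephritic (without prenephritic replicate 4, 5 or 6 or nephritic replicate 1, 4, 6 or 7) and 0.061 for remission minus prenephritic (without remission replicate 1, 3 or 4). The moderated limma test of the same differences gave adjusted p of 0.0086 and 0.0058 for those comparisons.

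Icosl, the ligand of ICOS, was at 12.10, 11.94, 11.94 and 12.19 in remission arrays. It ran from 11.22 through a median of 11.62 to 11.93 in nephritic arrays and from 11.96 through 12.38 to 12.58 in prenephritic arrays. The nephritic arrays lay below all others, but the gap to the remission arrays was 0.010 and that to the prenephritic arrays 0.029. Icosl fell in nephritic arrays by 0.68 ± 0.12 (1.61-fold, adjusted p = 0.0011), a call that held without any 1 array. Remission minus nephritic was 0.42 ± 0.13 with an adjusted p of 0.047, close to the threshold, and without any 1 of 11 of the 17 arrays it did not pass (adjusted p up to 0.13, without remission replicate 1). In remission minus prenephritic arrays Icosl was at −0.27, with a 95% interval from −0.56 to 0.023 (adjusted p = 0.30).

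Within groups, Icosl also moved against kidney tubule transcripts in the macrophage samples. A tubule score, the mean centred log2 value of 16 tubule genes, averaged 0.81 ± 0.65 in remission, −0.39 ± 0.97 in nephritic and −0.081 ± 0.65 in prenephritic arrays (SD, n = 4, 7 and 6). Its difference between remission and nephritic arrays was 1.20 (exact two-sided permutation p = 0.055, adjusted p = 0.11 over 3 tests). Of the 16 genes, 2 were called higher there, Calb1 and Pvalb, beside 3.27% of all genes higher and 13.3% called in all. After group means had been removed, Pearson's r between the score and Icosl was −0.80 over 17 arrays, and for the other members it lay between −0.43 (Cd86) and 0.45 (Pdcd1lg2). With the score as a covariate, the remission minus nephritic difference of Icosl was 0.68 (adjusted p = 0.00085), and Cd86 was 0.51 higher (adjusted p = 0.038). The log2 differences of Cd40, Cd274 and Pdcd1lg2 in that fit were −0.99, −1.50 and −3.60, with adjusted p of at most 0.012.

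Cd274 and Pdcd1lg2, which encode the ligands of PD-1, lie beside each other on chromosome 19 in the RefSeq annotation, with no protein-coding gene and 1 other annotated gene between their starts. Their promoters are shown because the neighbours rose together in nephritis but by unequal amounts. Each stretch holds 250 bases before and 50 after the annotated start in RefSeq's GRCm38.p6 table, which listed 5 of the 7 members (not Cd40 and Cd86). Capitals mark matches to any of 5 motifs searched on both strands.
Pdcd1lg2 promoter, GRCm38.p6, chr19:29410669-29410968, plus strand: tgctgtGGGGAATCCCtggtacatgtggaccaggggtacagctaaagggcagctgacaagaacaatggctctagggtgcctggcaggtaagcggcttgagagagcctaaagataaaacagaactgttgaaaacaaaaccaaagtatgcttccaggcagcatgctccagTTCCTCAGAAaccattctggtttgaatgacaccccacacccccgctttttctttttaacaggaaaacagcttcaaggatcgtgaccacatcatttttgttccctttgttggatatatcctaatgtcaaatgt
Cd274 promoter, GRCm38.p6, chr19:29367188-29367487, plus strand: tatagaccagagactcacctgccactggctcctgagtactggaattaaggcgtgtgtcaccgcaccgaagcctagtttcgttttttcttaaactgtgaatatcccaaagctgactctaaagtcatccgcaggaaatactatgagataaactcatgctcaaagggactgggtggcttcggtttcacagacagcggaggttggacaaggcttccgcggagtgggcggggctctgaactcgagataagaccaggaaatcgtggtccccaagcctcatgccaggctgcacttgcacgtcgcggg
The motifs were the NF-κB consensus, GAS (TTC and GAA with 3 free bases between them), the STAT6 motif (the same with 4 free bases), ISRE (GAAA, 2 free bases, GAAA) and AP-1 (TGANTCA). The matches found did not overlap. The Pdcd1lg2 promoter held a match to the NF-κB consensus at position −244 (GGGGAATCCC) and a match to the STAT6 motif at position −82 (TTCCTCAGAA), counted from the start. Among 32851 promoters of the same length, 4.51% held the NF-κB match and 6.95% the STAT6 match. The Cd274 window, like those of Icosl and Cd276, held none of the 5 motifs, and the Cd80 window held 1 AP-1 match. The shares of all promoters were 8.3% for GAS, 3.44% for ISRE and 7.81% for AP-1. A match is a run of letters and was not tested as a binding site. Any link of these promoters to the unequal changes was not tested either.

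Cd274 was at 9.65, 9.50, 9.77 and 10.08 in remission arrays. It ran from 10.40 through a median of 11.12 to 11.88 in nephritic arrays and from 9.62 through 10.10 to 10.54 in prenephritic arrays. All remission arrays lay below all nephritic arrays, whereas nephritic replicates 3 and 4 (10.40 and 10.50) overlapped the prenephritic range and the other 5 nephritic arrays lay above it. Cd274 was 1.98-fold higher in nephritic than in prenephritic arrays (0.99 ± 0.21, adjusted p = 0.0048) and 2.54-fold lower in remission than in nephritic arrays (−1.34 ± 0.24, adjusted p = 0.0016). Its remission minus prenephritic difference was −0.36, with a 95% interval from −0.87 to 0.16 (adjusted p = 0.41).

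Pdcd1lg2 was at 4.50, 4.76, 5.45 and 4.94 in remission arrays. Its nephritic levels ran from 6.57 through a median of 8.36 to 9.10, and its prenephritic levels from 4.63 through 5.48 to 6.14. No nephritic array overlapped the other groups, with a gap of 1.12 to the highest remission and of 0.43 to the highest prenephritic array. Pdcd1lg2 was 6.38-fold higher in nephritic than in prenephritic arrays (2.67 ± 0.35, adjusted p = 0.00014) and 8.86-fold lower in remission than in nephritic arrays (−3.15 ± 0.40, adjusted p = 0.00016). The remission mean of 4.91 was under 5.03, the lower quartile over the arrays' probe sets, and RMA compresses differences among dim genes, so the fold against it holds for RMA values and is not an exact ratio of RNA. Between remission and prenephritic arrays it differed by −0.47, with a 95% interval from −1.34 to 0.39 (adjusted p = 0.52). The nephritic arrays differed widely among themselves (SD 0.86), and replicates 3 and 4 were lowest for Pdcd1lg2 (6.57 and 7.25) as they were for Cd274. After group means had been removed, r between both genes was 0.66 over 17 arrays.

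Within arrays, Pdcd1lg2 changed more than Cd274. The test of their difference uses the values already described for both genes and is no separate support for their calls. The log2 value of Pdcd1lg2 minus Cd274 averaged −4.84 ± 0.39 in remission, −3.03 ± 0.55 in nephritic and −4.72 ± 0.54 in prenephritic arrays (SD, n = 4, 7 and 6). It was 1.69 higher in nephritic than in prenephritic arrays (exact two-sided permutation test, adjusted p = 0.0052 over 9 tests), and all 7 nephritic arrays lay above all prenephritic ones. In remission minus nephritic arrays it differed by −1.80 (adjusted p = 0.0055), again without overlap. Between remission and prenephritic arrays it differed by −0.12, with a 95% interval from limma of −0.77 to 0.54 (exact adjusted p = 0.72). The direction and call of the first pair of differences held without any 1 array.

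Cd276 was at 8.69, 8.86, 8.72 and 9.44 in remission arrays, at 9.28 to 9.77 (median 9.56) in nephritic arrays and at 8.59 to 9.38 (median 8.80) in prenephritic arrays. The nephritic arrays were tightly grouped (SD 0.15), and 1 of them lay within the prenephritic range. Remission replicate 4 and prenephritic replicates 3 and 4 stood well above the rest of their groups. Cd276 was 1.53-fold higher in nephritic than in prenephritic arrays (0.61 ± 0.15, adjusted p = 0.013) and 1.53-fold lower in remission than in nephritic arrays (−0.61 ± 0.17, adjusted p = 0.024). The decrease in remission was lost without remission replicate 1 (adjusted p = 0.099), replicate 2 (0.0805) or replicate 3 (0.0807), and with the tubule score as a covariate (−0.47, adjusted p = 0.15). Remission minus prenephritic was −0.0028, with a 95% interval from −0.37 to 0.36.

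Icosl and Cd276, members of the B7 family that bind neither CD28 nor PD-1, moved oppositely. Both had already been called in opposite directions in these arrays. The test of their difference restates those calls and is no separate support for them. Icosl minus Cd276 averaged 3.12 ± 0.28 in remission, 2.09 ± 0.30 in nephritic and 3.38 ± 0.42 in prenephritic arrays (SD, n = 4, 7 and 6). The nephritic minus prenephritic difference was −1.29 (exact two-sided permutation test, adjusted p = 0.0052 over 9 tests) and remission minus nephritic was 1.03 (adjusted p = 0.0055), without overlap in either comparison. In remission minus prenephritic arrays it was −0.26, with a 95% interval from limma of −0.71 to 0.18 (exact adjusted p = 0.34).

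**Figure D3:**
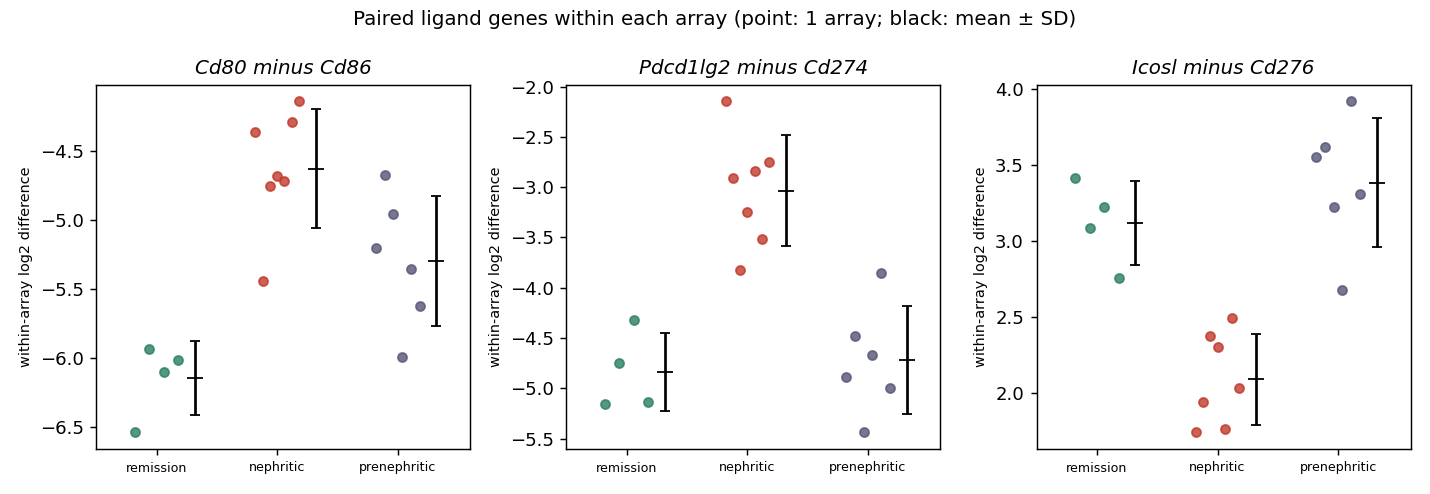
Difference of log2 levels between paired genes within each array (y axis) in remission (n = 4), nephritic (n = 7) and prenephritic arrays (n = 6). Points are arrays and black marks the mean ± SD. Nephritic arrays stand apart from both other groups for Pdcd1lg2 minus Cd274 (mean −3.03) and Icosl minus Cd276 (mean 2.09), whereas for Cd80 minus Cd86 the remission arrays are lowest (mean −6.15).

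For Cd40, Cd274, Pdcd1lg2, Cd276 and, in reverse, Icosl, the nephritic level differed from both others past the threshold, and the remission and prenephritic levels were not separated by the test. Cd86 was called only in nephritic minus prenephritic arrays, with the remission mean between the other means. Cd80 was called only in remission minus nephritic arrays, with the prenephritic mean between the other means. Between arrays of 1 group, the members did not vary as one block. After group means had been removed, the highest r among the 21 pairs were 0.69 for Cd86 and Icosl, 0.66 for Cd274 and Pdcd1lg2 and 0.61 for Cd80 and Icosl, and the lowest was −0.30 for Cd86 and Pdcd1lg2, each over 17 arrays and without a test. The arrays of each pair share their RMA scaling.

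Genes with the most similar pattern over the 17 arrays were found by Pearson's r with each member, which mostly follows the group differences. For Cd40 these were Il1rn, the interleukin-1 receptor antagonist gene (r = 0.97), Clcn7, a lysosomal chloride transporter gene (0.97), and Ly9, a SLAM family receptor gene (0.96). For Pdcd1lg2 they were Ubash3b and the phosphatase gene Ptpn22 (both 0.97) and Pilrb1 (0.96), and 91 genes in all had r above 0.9. For Cd274 they were Gpnmb, a glycoprotein gene of lipid-laden macrophages (0.95), Zfp819 (0.94) and Crybg1 (0.93). Icosl was most like Tmeff1 (0.96), Rdh12 (0.95) and the metalloprotease gene Adam19 (0.94). Adam19 (0.89) was also among the genes most like Cd86, with Prelid2 (0.89) and the lectin gene Mgl2 (0.86). Cd276 was most like Scarf2 (0.93), Vti1a and Aldh1b1 (both 0.92). Cd80 was most like Prcp (0.89), Prr5l (0.87) and Il4i1, the gene of an amino acid oxidase (0.85), and for both Cd80 and Cd86 0 genes had r above 0.9. With group means removed, r for these 21 pairs lay between 0.70 and 0.88. The pairs had been picked by r over the same 17 arrays, which favours high values here too.

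The genes of the partner molecules were examined in the same samples. Cd28 and Pdcd1 went opposite ways. Cd28, the stimulatory receptor for the products of Cd80 and Cd86, was at 5.35 to 6.73 (median 6.48) in remission arrays, at 4.44 to 4.93 (median 4.84) in nephritic arrays and at 5.61 to 7.36 (median 6.52) in prenephritic arrays. It fell in nephritic arrays by 1.76 ± 0.25 (adjusted p = 0.00022) and stood at 1.54 ± 0.28 in remission minus nephritic arrays (adjusted p = 0.0019), with no overlap of the nephritic range. Pdcd1, the PD-1 gene, was at 4.42 to 5.14 (median 4.56) in remission, 5.71 to 7.50 (median 6.18) in nephritic and 4.24 to 5.22 (median 5.04) in prenephritic arrays. It rose in nephritic arrays by 1.71 ± 0.27 (adjusted p = 0.00064) and its remission minus nephritic difference was −1.87 ± 0.31 (adjusted p = 0.00095). The nephritic mean of Cd28 and the remission and prenephritic means of Pdcd1 lay below the lower quartile of 5.03.

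The remaining partners did not pass in any comparison. Ctla4 and Cd40lg, which encodes CD154, had means below 5.03 in all 3 groups. Icos averaged 7.81 ± 0.18 in remission, 7.35 ± 0.31 in nephritic and 7.71 ± 0.19 in prenephritic arrays (SD, n = 4, 7 and 6), with a log2 difference of 0.46 ± 0.15 in remission minus nephritic (adjusted p = 0.053) and of −0.36 ± 0.13 in nephritic minus prenephritic (adjusted p = 0.091). Rgmb, which encodes a further partner of PD-L2, differed by at most 0.25 in size.

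**Figure D4:**
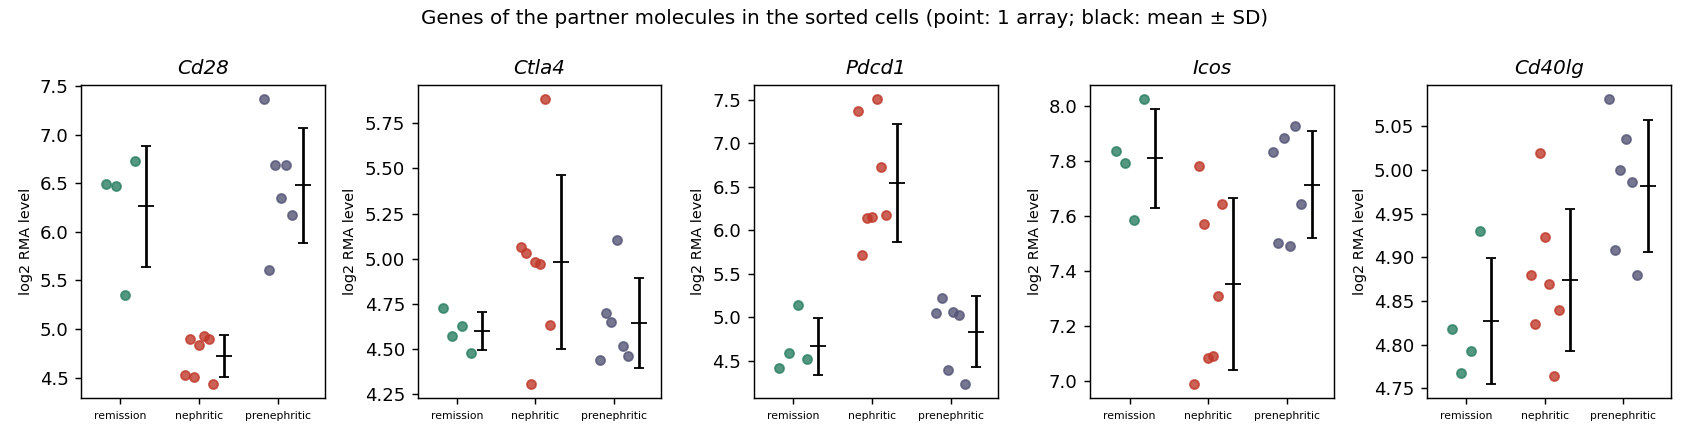
Log2 RMA level (y axis, a scale of its own per panel) of 5 partner genes in remission (n = 4), nephritic (n = 7) and prenephritic arrays (n = 6). Points are arrays and black marks the mean ± SD. Nephritic arrays are lowest for Cd28 (mean 4.72) and highest for Pdcd1 (mean 6.54), and Ctla4 and Cd40lg stay near or below 5 in most arrays.

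Some T cell genes were called in the same direction as Pdcd1. Of 9 measured T cell markers, 3 were higher in nephritic than in prenephritic arrays (Cd3e, Cd3g and Cd8a) and 0 lower, beside 6.74% and 5.32% of all genes. The other 6 did not pass, and Cd4, Cd5 and Cd247 stood at −0.18, −0.18 and −0.07. In remission, 4 were lower than in nephritic arrays (Cd3d, Cd3e, Cd3g and Cd8a) and 0 higher, beside 10.0% and 3.27% of all genes, with Cd4 and Cd5 at 0.34 and 0.13 without passing. Their mean log2 level per array ran from 4.88 to 5.12 in remission, from 5.22 to 5.62 in nephritic and from 4.94 to 5.30 in prenephritic arrays. Cd3g averaged 4.10, 5.70 and 4.22 in remission, nephritic and prenephritic arrays. The part of T cells in the Pdcd1 values was not tested.

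Antigen-presenting cells other than macrophages can carry the same ligands. The marker counts that follow stand beside 6.74% of all genes higher and 5.32% lower in nephritic than in prenephritic arrays. For remission against nephritic arrays the shares of all genes were 3.27% higher and 10.0% lower. Of 9 dendritic cell markers, Xcr1 was higher and Flt3 lower in nephritic than in prenephritic arrays, and Xcr1 and Zbtb46 were lower in remission than in nephritic arrays. The mean of the 9 markers per array ran from 5.59 to 6.41 in remission, 6.10 to 7.55 in nephritic and 5.66 to 7.62 in prenephritic arrays. Of 7 B cell markers, Cd79b was higher in nephritic than in prenephritic arrays and 0 were called in remission against nephritic arrays, and 4 of the 7 lay below the lower quartile in both groups of each of these comparisons. Of 6 plasma cell markers, 4 were higher and 2 lower in nephritic than in prenephritic arrays, and 1 was higher and 3 were lower in remission than in nephritic arrays. Of 8 endothelial markers only Pecam1 was called, at 1.84 in nephritic minus prenephritic and −2.05 in remission minus nephritic arrays. The part of these cells in the ligand values was not tested. Of 8 macrophage markers, among them Adgre1, whose product names the F4/80hi cells, 3 were higher in nephritic arrays (Itgam, Mertk and Fcgr1), the same 3 were lower in remission than in nephritic arrays, and the other 5 did not pass in either comparison. The mean log2 level of the 8 markers per array ran from 11.28 to 11.64 in remission, 11.73 to 12.00 in nephritic and 11.26 to 11.56 in prenephritic arrays. The nephritic arrays thus lay above all others in this mean. The median log2 difference of the 8 markers was 0.07 in nephritic minus prenephritic and 0.004 in remission minus nephritic arrays, so most markers did not share the shift. The part of the macrophage marker changes in the ligand values was not tested.

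Downstream of CD40, from TRAF adaptors to NF-κB, 3 of 17 measured genes rose and 0 fell in nephritic arrays, beside 6.74% and 5.32% of all genes. In remission against nephritic arrays 0 were higher and 6 lower, beside 3.27% and 10.0% of all genes. The medians were 0.10 and −0.41, beside −0.02 and −0.03 for all genes. Relb, a subunit of the alternative NF-κB pathway that CD40 feeds, rose by 0.68 ± 0.16 in nephritic arrays (adjusted p = 0.011) and stood at −0.94 ± 0.18 in remission minus nephritic arrays (adjusted p = 0.0031). Its partner Nfkb2 rose by 0.51 ± 0.12 (adjusted p = 0.013) and was lower in remission (−0.87 ± 0.14, adjusted p = 0.00083). Birc3, which encodes a ubiquitin ligase in CD40 signalling to NF-κB, rose by 0.30 ± 0.08 (adjusted p = 0.028) and was lower in remission (−0.43 ± 0.09, adjusted p = 0.0070). The adaptor genes Traf1 and Traf2 stood at 0.21 ± 0.16 and 0.33 ± 0.11 in nephritic minus prenephritic arrays (adjusted p = 0.46 and 0.058) and were lower in remission than in nephritic arrays, at −0.67 ± 0.18 and −0.54 ± 0.12 (adjusted p = 0.021 and 0.0082).

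Of 21 other costimulatory and coinhibitory surface genes, 9 rose, 1 fell and 11 did not pass in nephritic arrays, where 6.74% of all genes rose and 5.32% fell. In remission against nephritic arrays 0 were higher and 12 lower (3.27% and 10.0% of all genes). The medians were 0.33 and −0.51 in these comparisons, beside −0.02 and −0.03 for all genes. Cd244a, which encodes the SLAM family receptor 2B4, averaged 8.20, 9.90 and 8.12 in remission, nephritic and prenephritic arrays. It rose by 1.79 ± 0.27 in nephritic arrays (adjusted p = 0.00036) and was lower in remission (−1.71 ± 0.30, adjusted p = 0.0016). Cd200r1, the gene of an inhibitory receptor of myeloid cells, rose by 0.82 ± 0.13 (adjusted p = 0.00050) and was lower in remission (−0.94 ± 0.14, adjusted p = 0.00056). Nectin2, a ligand gene of the TIGIT and DNAM-1 receptors, rose by 1.00 ± 0.14 (adjusted p = 0.00017), and Tnfsf14, which encodes LIGHT, by 0.98 ± 0.17 (adjusted p = 0.0012). Both were lower in remission than in nephritic arrays, at −0.57 ± 0.15 and −0.96 ± 0.19 (adjusted p = 0.021 and 0.0042). The 1 gene that fell was Tnfsf8, the CD30 ligand gene, which stood at −1.03 ± 0.15 in nephritic minus prenephritic arrays (adjusted p = 0.00035) and at 0.02 ± 0.17 in remission minus nephritic arrays (adjusted p = 0.95), with means of 5.03, 5.01 and 6.04 in remission, nephritic and prenephritic arrays. Its remission minus prenephritic difference of −1.01 ± 0.18 did not pass (adjusted p = 0.064).

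Genes of cytokine receptors, STATs and interferon regulatory factors known to control the ligands were also followed. Of 19 measured, 4 rose and 4 fell in nephritic arrays, beside 6.74% and 5.32% of all genes. In remission against nephritic arrays 0 were higher and 5 lower, beside 3.27% and 10.0% of all genes. The list medians were 0.09 and −0.22, beside −0.02 and −0.03 for all genes. Stat3, which carries interleukin-10 signals, rose by 0.64 ± 0.09 (adjusted p = 0.00020) and was lower in remission (−0.79 ± 0.10, adjusted p = 0.00015). Il10 itself rose by 2.47 ± 0.51 (adjusted p = 0.0043) and was lower in remission (−2.86 ± 0.58, adjusted p = 0.0041). Csf2rb, the shared receptor chain for GM-CSF, rose by 0.58 ± 0.16 (adjusted p = 0.022) and was lower in remission (−0.79 ± 0.18, adjusted p = 0.0078), whereas Csf2ra, the GM-CSF binding chain, fell by 0.33 ± 0.08 in nephritic arrays (adjusted p = 0.016). Irf4 fell in nephritic arrays by 0.67 ± 0.15 (adjusted p = 0.0066). In remission minus nephritic arrays neither Csf2ra nor Irf4 was called.

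**Figure D5:**
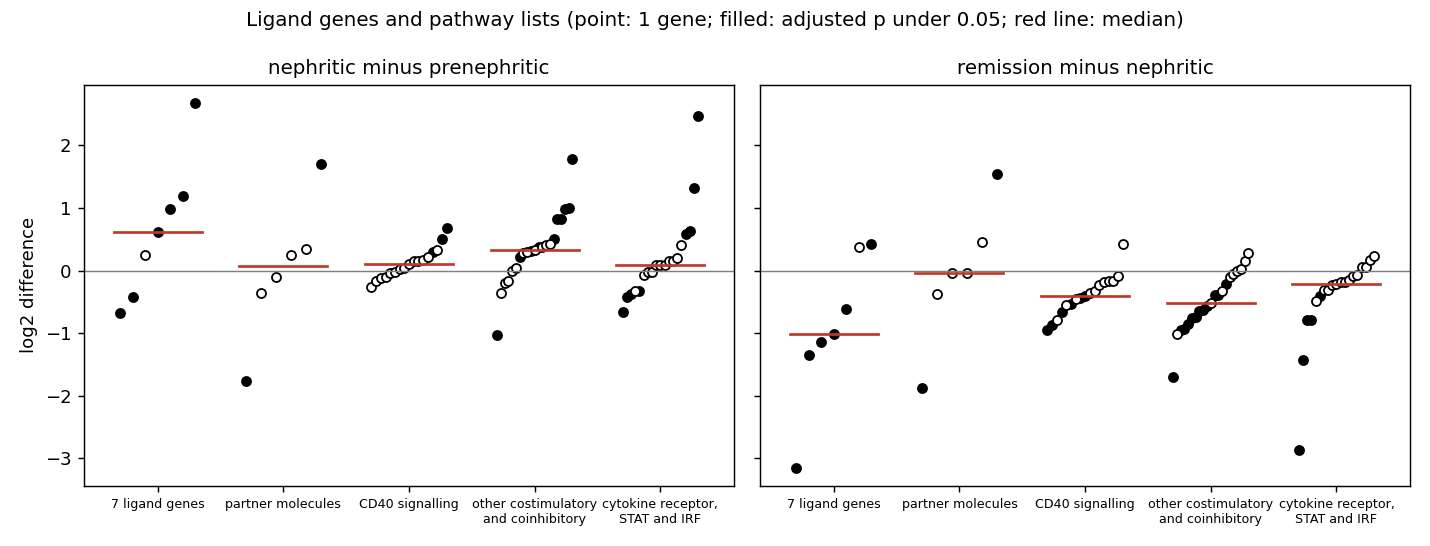
Log2 difference of each gene (y axis) for the 7 ligand genes and 4 lists of related genes, in nephritic minus prenephritic (left) and remission minus nephritic arrays (right). Points are genes, filled where adjusted p was below 0.05, and the red line is the median of the list. In the list of other costimulatory and coinhibitory genes, 9 of 21 rose in nephritic arrays, beside 6.74% of all genes. In the same list 12 of 21 were lower in remission than in nephritic arrays, beside 10.0% of all genes.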

How the data were processed

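The deposited values are log2 expression levels from RMA, as the submitters' processing notes name it without a version. RMA corrects background, equalises the distributions of all arrays and summarises each probe set, so a change in total RNA per cell is lost. No source used here gives the array's probe definition. Of 16539 probe sets, 64 controls and 695 without a symbol were left out, and 15780 named genes remained.

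With limma 3.58.1 in R 4.3.3, group means were estimated from the 17 arrays together, with no filter on level. Benjamini-Hochberg adjustment ran over the 15780 genes of each comparison. The fit was tested on simulated data. Within-array differences of 3 gene pairs were tested by exact permutation and adjusted over 9 tests. Alternatives changed scaling, filter, variance prior, array weights, arrays and covariates. The members, lists, pairs and tests were chosen with earlier results of these data known. Genes beyond the 7 members were named by rule: up to 5 genes of a list by smallest p, all partner genes, and the 3 genes most correlated with each member. Correlations between arrays ran from 0.942 to 0.994, and the number of arrays limits the precision.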

Additional observations from a re-analysis of the deposited data

How the results depend on the processing

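Cd40, Cd274 and Pdcd1lg2 kept direction and call in nephritic minus prenephritic and remission minus nephritic arrays under all alternatives run. Of 588 member values under alternatives, 551 kept both, 24 lost a call, 4 newly came below 0.05 and 9 changed sign. The cause was not tested. These counts include an exact two-sided permutation test, whose unadjusted p was set against 0.05. Limma calls were gained only by Cd86 in remission minus nephritic arrays, with arrays weighted and with the tubule covariate. In the exact two-sided permutation test, Cd86 in remission minus nephritic and Cd80 in remission minus prenephritic arrays had an unadjusted p of 0.024. The sign changes concerned uncalled remission minus prenephritic values. Cd276 turned to 0.019 with repeated quantile normalization, 0.10 with the tubule covariate and −0.17 to 0.089 without single arrays. Cd86 turned to 0.051 with the tubule covariate and −0.081 to 0.016 without single arrays, and Pdcd1lg2 minus Cd274 ran from −0.29 to 0.055 without single arrays. Without single arrays, Cd80 minus Cd86 ran from 0.53 to 0.81 in nephritic minus prenephritic and from −0.99 to −0.72 in remission minus prenephritic arrays.

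Members lower in nephritic than in prenephritic arrays numbered 1 with array medians subtracted and 1 to 2 without single arrays. Members higher in remission than in nephritic arrays numbered 0 with medians subtracted, 0 with the replicate block, 0 without nephritic replicate 6 and prenephritic replicate 5, 2 with arrays weighted, 2 with the tubule covariate and 0 to 1 without single arrays. Members lower there numbered 3 with the tubule covariate and 3 to 5 without single arrays.

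Genes lower in nephritic than in prenephritic arrays (840) numbered 539 with medians subtracted, 1578 with the tubule covariate, 477 without nephritic replicate 6 and prenephritic replicate 5, and 569 to 1009 without single arrays. Genes higher in remission than in nephritic arrays (516) numbered 1239 with weights, 1064 with the block and 182 to 981 without single arrays, and genes lower (1584) numbered 2385 with weights, 821 with the covariate and 839 to 1940. In remission minus prenephritic arrays, genes higher (0) numbered 2 with quantile normalization, 69 with weights, 234 with the block and 0 to 28 without single arrays. Genes lower (1) numbered 3 with quantile normalization, medians or a robust trended prior, 289 with weights, 244 with the block, 0 with only the groups compared, the covariate or the pair of arrays left out, and 0 to 171 without single arrays.

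The titles repeat replicate numbers across groups, and the labels do not say what these numbers mark. The deviations of same-numbered arrays correlated from −0.26 to 0.80 over 14 pairs, with a median of 0.12. Of these pairs, 8 were above 0.1 and some were below 0. For arrays of other numbers the median was 0.0055. The numbers were not taken as a pairing, and whether same-numbered arrays share a batch was not tested. With the replicate block, Icosl in remission minus nephritic arrays was 0.36 (adjusted p = 0.15), and no other member call was lost.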
